A study of Mus musculus with 23 samples.

Results

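The interferon-inducible GTPases of the guanylate-binding protein (GBP) and immunity-related GTPase (IRG) families were followed in sorted splenic dendritic cells of Bcl6 conditional knockout and wild-type mice. The 10 genes taken were Gbp2, Gbp3, Gbp5, Gbp6, Gbp7, Gbp9, Irgm1, Irgm2, Igtp and Iigp1, of 19938 genes that had a probe set of their own on the array. They were taken by gene symbol, from a list chosen with earlier results of these data known. The 10 genes were read by 9 probe sets, and all 9 passed the filter on low values. Of these, 6 named 1 gene only: those of Gbp3, Gbp5, Gbp7, Gbp9, Irgm1 and Iigp1. The probe set for Gbp2 also named Gbp2b. Irgm2 and Igtp had a probe set in common. The probe set for Gbp6 also named Gbp4, Gbp8, Gbp9, Gbp10 and Gbp11, 6 genes in all, so Gbp9 was read by 2 probe sets. No level of its own can be given for Gbp2, Gbp6, Irgm2 or Igtp, and related family members may share signal on the others too.

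Each of the 23 Mouse Gene 1.0 ST arrays held RNA of 1 sorted spleen population. Groups were Bcl6 cKO (conditional knockout) and WT (wild type) type 1 conventional dendritic cells (cKO cDC1, n = 4, and WT cDC1, n = 3), type 2 conventional dendritic cells (cKO cDC2, n = 5, and WT cDC2, n = 3) and plasmacytoid dendritic cells (cKO pDC, n = 5, and WT pDC, n = 3). No treatment other than tissue digestion is named. The sources used here name no Cre driver, strain, age or floxed allele of the WT mice, nor is it stated that the arrays of 1 group stand for different animals. The p-values therefore reflect the array-to-array spread alone, which could be technical. In sorted but bulk RNA, fewer cells of a type and less RNA per cell cannot be told apart.

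GBP and IRG proteins are GTPases that interferon-treated cells place on the membranes of vacuoles holding intracellular pathogens such as Toxoplasma gondii. GBP proteins assemble into coats that help to break such vacuoles and to open bacteria to inflammasome sensing. Among IRG proteins, Irgm1, Irgm2 and Igtp (also called Irgm3) act as regulators that stay on host membranes and keep effector members such as Iigp1 (Irga6) off them. Transcription of the family in mouse cells is driven by interferon-gamma, in part through IRF1, and also by type I interferons. BCL6 is a transcriptional repressor of the zinc finger type. Gbp2, Gbp3, Gbp5 and Gbp7 lie in a cluster on chromosome 3, Gbp6 and Gbp9 in one on chromosome 5 and Irgm1, Irgm2 and Igtp on chromosome 11.

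The stretches before the annotated starts of 6 members are shown as a description. Gbp3, Gbp7, Gbp5 and Gbp2 are read by the probe sets called in a genotype comparison. Irgm2 and Igtp share a probe set that was not called in any genotype comparison. The sequences are from RefSeq, build GRCm38.p6, each of 175 bases ending just before the start, written 5′ to 3′ on the gene's own strand. Capitals mark bases matching GAAA followed after any 2 bases by GAAA, the core of an interferon-stimulated response element (below, the GAAA repeat), or TTCNNNGAA, the gamma-activated type, on either strand.
Gbp3, chr3:142559869-142560043, plus strand: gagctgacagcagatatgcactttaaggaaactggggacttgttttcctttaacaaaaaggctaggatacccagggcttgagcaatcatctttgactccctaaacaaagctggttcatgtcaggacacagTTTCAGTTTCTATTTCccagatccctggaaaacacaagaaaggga
Gbp7, chr3:142530161-142530335, plus strand: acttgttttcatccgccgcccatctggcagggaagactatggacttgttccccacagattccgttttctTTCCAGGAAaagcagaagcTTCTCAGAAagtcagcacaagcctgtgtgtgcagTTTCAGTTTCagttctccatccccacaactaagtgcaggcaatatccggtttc
Gbp5, chr3:142496759-142496933, plus strand: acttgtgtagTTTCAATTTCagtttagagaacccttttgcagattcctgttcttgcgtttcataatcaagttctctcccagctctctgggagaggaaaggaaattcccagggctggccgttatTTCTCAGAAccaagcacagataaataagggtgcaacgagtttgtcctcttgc
Gbp2, chr3:142620488-142620662, plus strand: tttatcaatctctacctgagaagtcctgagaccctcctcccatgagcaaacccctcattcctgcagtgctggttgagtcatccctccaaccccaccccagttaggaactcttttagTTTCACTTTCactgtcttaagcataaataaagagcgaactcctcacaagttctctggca
Irgm2, chr11:58214802-58214976, plus strand: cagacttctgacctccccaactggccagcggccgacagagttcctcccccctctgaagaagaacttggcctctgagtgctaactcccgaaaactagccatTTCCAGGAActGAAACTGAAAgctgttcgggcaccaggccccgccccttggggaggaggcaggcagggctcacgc
Igtp, chr11:58199381-58199555, plus strand: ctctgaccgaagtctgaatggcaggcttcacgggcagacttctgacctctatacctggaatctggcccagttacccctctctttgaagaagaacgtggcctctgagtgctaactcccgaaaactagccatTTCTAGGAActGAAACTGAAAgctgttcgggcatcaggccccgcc

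Of the 10 members, 7 had a promoter entry of 250 bases before to 50 after the start, the exceptions being Gbp6, Gbp9 and Iigp1. The GAAA repeat was found in 7 of 7, against 3.99% of 27025 genes with an entry. Gbp3 and Irgm1 each held 2 overlapping matches, at −45 to −36 and −39 to −30 in Gbp3 and at −30 to −21 and −24 to −15 in Irgm1. In the other 5 the match lay at −53 to −44 (Gbp7), −59 to −50 (Gbp2), −165 to −156 (Gbp5), −64 to −55 (Irgm2) and −34 to −25 (Igtp). Gbp3 had 2 annotated starts, and the stretch before the other start held no match. TTCNNNGAA was found in 4 of 7 (Gbp5, Gbp7, Irgm2 and Igtp), against 9.55% of genes, and all 4 therefore held both motifs, against 0.54% of genes. TTCCTNGAA, a BCL6-type motif whose matches are all also matches to TTCNNNGAA, was found in 3 of 7 (Gbp7, Irgm2 and Igtp), against 1.86% of genes. Irgm2 and Igtp had an uninterrupted run of 38 equal bases, from −110 in Irgm2 and from −80 in Igtp. A match is a description of the letters and not a binding site.

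**Figure D1:**
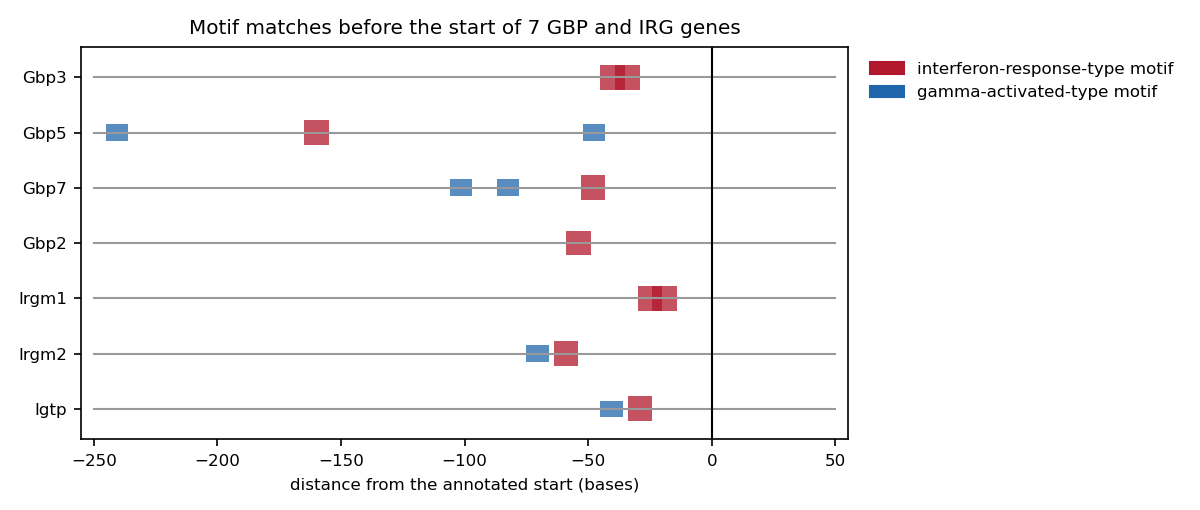
Motif matches in the promoters of 7 members, by distance in bases from the annotated start (vertical line). Red boxes are the GAAA repeat and blue boxes TTCNNNGAA, on either strand. All 7 genes have a red box and 4 have a blue one, Gbp5 and Gbp7 with 2 blue boxes each.

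Array medians lay between 29.3 and 41.16 intensity units. They fell into a dimmer set of 14 arrays (29.3 to 34.29) and a brighter set of 9 (38.86 to 41.16), found from the data and named by no label, and each of the 6 groups had arrays of both. WT replicate 1 of each cell type stood apart in Xist, the transcript of the inactive X chromosome, at 10.9 or more on the log2 scale, against 5.07 or less on the other 20 arrays. Without these 3 arrays the genotype comparisons called the same numbers of member probe sets (2 in cDC1, 4 in cDC2 and 0 in pDC). Whether the only Bcl6 probe set falls within the deleted stretch is not known, so it is no check of the labels. It averaged 8.39 ± 0.29 in cKO cDC1 and 7.42 ± 0.61 in WT cDC1 (SD), 8.0 ± 0.51 and 7.31 ± 0.46 in cKO and WT cDC2, and 5.72 ± 0.52 and 5.87 ± 0.47 in cKO and WT pDC. For cDC1 and pDC markers the sorted population stood apart: the summed intensity of 7 cDC1 markers was 6215 to 10030 on cDC1 arrays and 666.3 to 1900 elsewhere, and that of 6 pDC markers was 18420 to 30810 on pDC arrays and 804.3 to 2874 elsewhere. The 6 cDC2 markers did not set cDC2 apart from pDC in this sum, with 3449 to 8361 on cDC2 arrays and 2125 to 5297 on pDC arrays.

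Several GBP genes of the chromosome 3 cluster were higher in Bcl6 cKO conventional dendritic cells. Gbp3 and Gbp7 rose in both cDC1 and cDC2, Gbp5 and the Gbp2 probe set rose in cDC2, and no member fell in any cell type. Of 9 member probe sets, 2 were called higher in cDC1, where 0.842% of the 13069 probe sets tested were called in either direction and 0.819% called higher. In cDC2, 4 of 9 were called higher, against 1.5% called in either direction and 1.12% called higher. In pDC, limma called 0 of 9, against 0.0459% of all, and 3 of 9 were higher with an unadjusted p below 0.05 (Iigp1, Gbp7 and Gbp9), against 1.4% of all. In cDC1 9 of 9 and in cDC2 7 of 9 were higher at that unadjusted level, against 2.61% and 4.62% of all. A call is an adjusted p below 0.05 in limma, with Benjamini-Hochberg adjustment over all 13069. The median difference of the 9, cKO minus WT, was 1.09 in cDC1, 0.95 in cDC2 and 0.61 in pDC on the log2 scale, against 0.06, 0.07 and 0.05 over all probe sets. For all 9, the difference was above 0 in each of the 3 cell types, where 63.4%, 64.5% and 58.5% of all probe sets were. Every cKO array lay above every WT array for 7 of 9 in cDC1, 5 of 9 in cDC2 and 0 of 9 in pDC, against 2.99%, 3.22% and 0.482% of all.

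**Figure D2:**
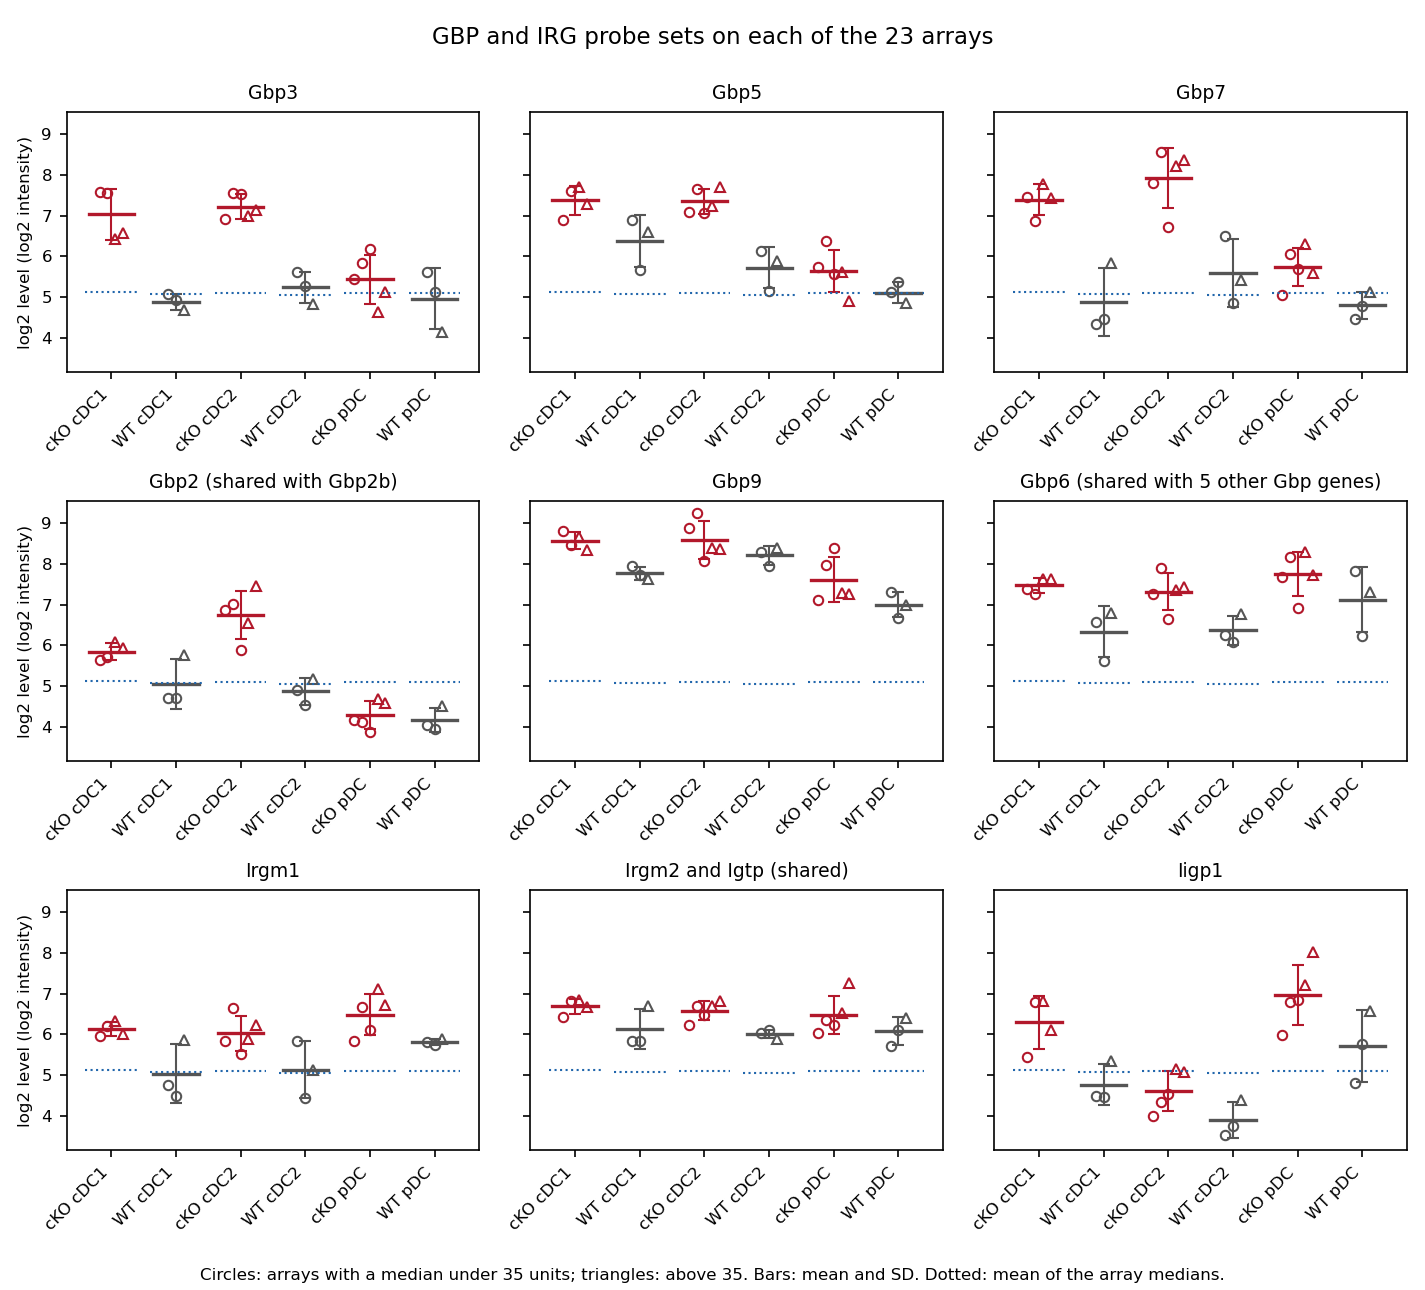
Log2 intensity of the 9 member probe sets on each array, cKO groups in red and WT groups in grey. Circles are arrays of the dimmer set and triangles of the brighter set, bars are mean and SD, and the dotted line is the mean of the arrays' medians. Gbp3 and Gbp7 have the largest differences between the cKO and WT means in both conventional types.

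Gbp7, a member described in mouse macrophages as helping to assemble the NADPH oxidase on vacuoles, had the largest difference of the family in both conventional types. It read 7.46, 6.87, 7.78 and 7.45 in cKO cDC1, against 4.34, 4.46 and 5.85 in WT cDC1 (log2 intensity, arrays in replicate order). All cKO arrays were above all WT arrays, and WT replicate 3, of the brighter set, was the highest of its group. The difference was 2.51 ± 0.43 (SE), a 5.68-fold higher intensity (adjusted p = 0.0019). In cDC2, Gbp7 read 7.79, 8.55, 6.72, 8.21 and 8.36 in cKO cells, against 6.49, 4.85 and 5.43 in WT cells. The groups again did not overlap, although cKO replicate 3 and WT replicate 1 came close. This gave 2.33 ± 0.41, or 5.04-fold (adjusted p = 0.00202). In pDC, levels of 5.06, 6.06, 5.70, 6.29 and 5.60 in cKO cells and 4.46, 4.80 and 5.14 in WT cells overlapped, and the difference of 0.94 ± 0.41 was not called (adjusted p = 1, unadjusted p = 0.0323).

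Gbp3, a neighbour of Gbp7 in the chromosome 3 cluster, whose joint deletion leaves mice susceptible to Toxoplasma, followed the same order of groups at the top. It read 7.59, 7.55, 6.42 and 6.57 in cKO cDC1 and 5.07, 4.93 and 4.68 in WT cDC1, without overlap. The dimmer cKO arrays 1 and 2 were higher than the brighter arrays 3 and 4. The difference was 2.14 ± 0.37 (adjusted p = 0.00179). In cDC2, Gbp3 read 6.92, 7.55, 7.52, 6.98 and 7.13 in cKO cells, against 5.62, 5.27 and 4.84 in WT cells, again without overlap. Here the difference was 1.98 ± 0.35, or 3.94-fold (adjusted p = 0.00202). In pDC, 5.45, 5.83, 6.18, 4.63 and 5.13 in cKO cells lay among 5.61, 5.14 and 4.14 in WT cells, a difference of 0.48 ± 0.35 (adjusted p = 1). For both genes the WT cDC1 mean, 4.89 ± 0.20 for Gbp3 and 4.88 ± 0.84 for Gbp7, lay below the mean of the arrays' medians (5.07), which leaves the sizes of their folds uncertain. Within the dimmer and the brighter set, the cDC1 difference was 2.57 and 1.81 for Gbp3 and 2.77 and 1.76 for Gbp7, and the cDC2 difference 1.89 and 2.21 for Gbp3 and 2.02 and 2.85 for Gbp7.

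Gbp5, described in mouse cells as promoting inflammasome assembly, was called in cDC2 alone among the genotype comparisons. It read 7.08, 7.66, 7.07, 7.24 and 7.72 in cKO cDC2, against 6.13, 5.16 and 5.90 in WT cDC2. All cKO arrays were above all WT arrays. The difference was 1.62 ± 0.31, or 3.08-fold (adjusted p = 0.00408), but it no longer passed without WT cDC2 replicate 2 (adjusted p = 0.0627). In cDC1, Gbp5 read 6.90, 7.60, 7.71 and 7.28 in cKO cells and 6.88, 5.67 and 6.61 in WT cells. WT replicate 1 all but reached the lowest cKO array, and the difference of 0.99 ± 0.32 was not called (adjusted p = 0.357). In pDC it read 5.75, 6.37, 5.57, 5.63 and 4.92 in cKO cells and 5.13, 5.36 and 4.86 in WT cells, with overlap. The difference in cDC1 minus that in cDC2 was −0.64 ± 0.45 (adjusted p = 1), so the cDC1 and cDC2 differences were not shown to differ.

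The probe set shared by Gbp2, which coats Toxoplasma vacuoles in mouse cells, and Gbp2b (the mouse Gbp1) read 6.87, 7.01, 5.88, 6.55 and 7.47 in cKO cDC2, against 4.92, 4.53 and 5.19 in WT cDC2. All cKO arrays were above all WT arrays. It rose by 1.88 ± 0.30, or 3.67-fold (adjusted p = 0.000646), and the WT mean of 4.88 lay below the mean of the arrays' medians (5.06). In cDC1 it read 5.65, 5.73, 6.10 and 5.93 in cKO cells and 4.71, 4.71 and 5.76 in WT cells. WT replicate 3 fell within the cKO range, and the difference of 0.79 ± 0.31 was not called (adjusted p = 0.856). In pDC, 4.18, 4.12, 3.88, 4.69 and 4.58 in cKO cells and 4.05, 3.96 and 4.52 in WT cells all lay below their arrays' medians. The pDC difference was 0.12 ± 0.30, the smallest of any member in any cell type.

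Gbp2b also had a probe set of its own, and it showed another pattern across cell types. It rose in cDC1, where it ranged from 6.40 to 6.80 in 4 cKO arrays, against 4.13 to 4.73 in 3 WT arrays, without overlap. The difference was 2.25 ± 0.26 (adjusted p = 9.36e-06). In cDC2 the Gbp2b probe set read 3.93 to 4.86 in cKO cells and 3.91 to 4.35 in WT cells, below the array median on all 8 arrays, with a difference of 0.19 ± 0.25 (adjusted p = 1). The cDC1 difference exceeded the cDC2 difference by 2.06 ± 0.36 (adjusted p = 0.00619) and the pDC difference by 2.08 ± 0.36 (adjusted p = 0.0044). Without the 3 high-Xist arrays the excess over cDC2 no longer passed (adjusted p = 0.0724). The WT cDC1 arrays of Gbp2b were all below the array median, so these sizes are uncertain. The probe set that Gbp2 and Gbp2b share therefore rose in cDC2 while the probe set of Gbp2b alone was not above the array median there.

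Neither probe set for the chromosome 5 members was called in a genotype comparison of the main fit, and each was called in cDC1 in 1 alternative. Gbp9 read 8.81, 8.46, 8.65 and 8.35 in cKO cDC1, against 7.95, 7.72 and 7.64 in WT cDC1, on arrays that did not overlap. Its difference was 0.80 ± 0.29 (adjusted p = 0.638). A replicate block fitted to the cDC1 arrays alone, which the numbers are not shown to pair across genotype, gave 0.87 and a call (adjusted p = 0.0415). In cDC2 it read 8.88, 9.26, 8.08, 8.38 and 8.37 in cKO cells and 8.29, 7.95 and 8.40 in WT cells, and in pDC 7.13, 7.98, 8.39, 7.28 and 7.25 in cKO cells and 7.30, 6.68 and 7.0 in WT cells. Both pairs overlapped, with differences of 0.38 ± 0.28 and 0.61 ± 0.28. The probe set of Gbp6 and 5 other Gbp genes read 7.38, 7.27, 7.63 and 7.62 in cKO cDC1, against 6.58, 5.62 and 6.81 in WT cDC1. These arrays did not overlap, and the difference of 1.14 ± 0.36 was not called (adjusted p = 0.319). With array weights in limma the difference was 1.28 and called (adjusted p = 0.00454). The ranges of this probe set overlapped in cDC2 (6.65 to 7.89 in cKO and 6.09 to 6.77 in WT cells) and in pDC (6.91 to 8.30 in cKO and 6.24 to 7.82 in WT cells), with differences of 0.95 ± 0.35 and 0.64 ± 0.35.

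The cluster mate Gbp8, with a probe set of its own, rose in cDC1: 8.56 to 8.93 in cKO cells, against 6.77 to 7.67 in WT cells, a difference of 1.59 ± 0.27, or 3.0-fold (adjusted p = 0.00154). For cDC2 cells the same probe set gave 0.81 ± 0.26 (adjusted p = 0.19), and pDC gave −0.07 ± 0.26 (adjusted p = 1). The excess of the cDC1 over the pDC difference for Gbp8 was 1.65 (adjusted p = 0.0587). The genes on either side of both GBP clusters were not called: over 3 tested genes before and 3 after each cluster, differences in the 3 cell types ran from −0.43 to 0.55, the highest for Pdlim5 in cDC2 (adjusted p = 0.152).

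The regulatory IRG proteins were not called in any genotype comparison. Irgm1, needed for resistance of mice to mycobacteria, read 5.97, 6.22, 6.33 and 6.01 in cKO cDC1, against 4.76, 4.5 and 5.86 in WT cDC1. Again WT replicate 3 was near the cKO arrays but below all of them, and the difference was 1.09 ± 0.35 (adjusted p = 0.307). Without that array it was called, 1 of 2 alternatives in which it was. In cDC2 Irgm1 ranged from 5.52 to 6.66 in cKO cells and from 4.44 to 5.84 in WT cells, a difference of 0.89 ± 0.33, and in pDC from 5.84 to 7.11 in cKO cells and from 5.75 to 5.89 in WT cells, a difference of 0.67 ± 0.33. The Irgm2 and Igtp probe set moved least of the IRG probe sets, by 0.55 ± 0.26 in cDC1, 0.58 ± 0.25 in cDC2 and 0.40 ± 0.25 in pDC. Its arrays read 6.23, 6.69, 6.49, 6.71 and 6.83 in cKO cDC2, all above 6.03, 6.10 and 5.90 in WT cDC2, and overlapped in the other cell types.

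Iigp1, the effector that loads onto Toxoplasma vacuoles, had the largest difference of the 9 probe sets in pDC. Its gene lies on chromosome 18. It read 6.0, 6.80, 6.84, 7.20 and 8.03 in cKO pDC, against 4.81, 5.78 and 6.57 in WT pDC. The highest WT array lay above the lowest cKO array, and the difference of 1.26 ± 0.42 was not called (adjusted p = 1, unadjusted p = 0.00703). In cDC1 it read 5.46, 6.79, 6.82 and 6.11 in cKO cells and 4.49, 4.47 and 5.35 in WT cells. These groups did not overlap, though the highest WT array came close to the lowest cKO array, and the difference was 1.53 ± 0.44 (adjusted p = 0.191). With the replicate number as a block, not shown to pair these arrays across genotype, it was 1.42 and called (adjusted p = 0.00873). With the block fitted to the cDC1 arrays alone it was 1.59 and not called (adjusted p = 0.0682). In cDC2, 4.0, 4.33, 4.53, 5.15 and 5.07 in cKO cells and 3.54, 3.75 and 4.39 in WT cells were below the array median on every array, and no fold is read from them.

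**Figure D3:**
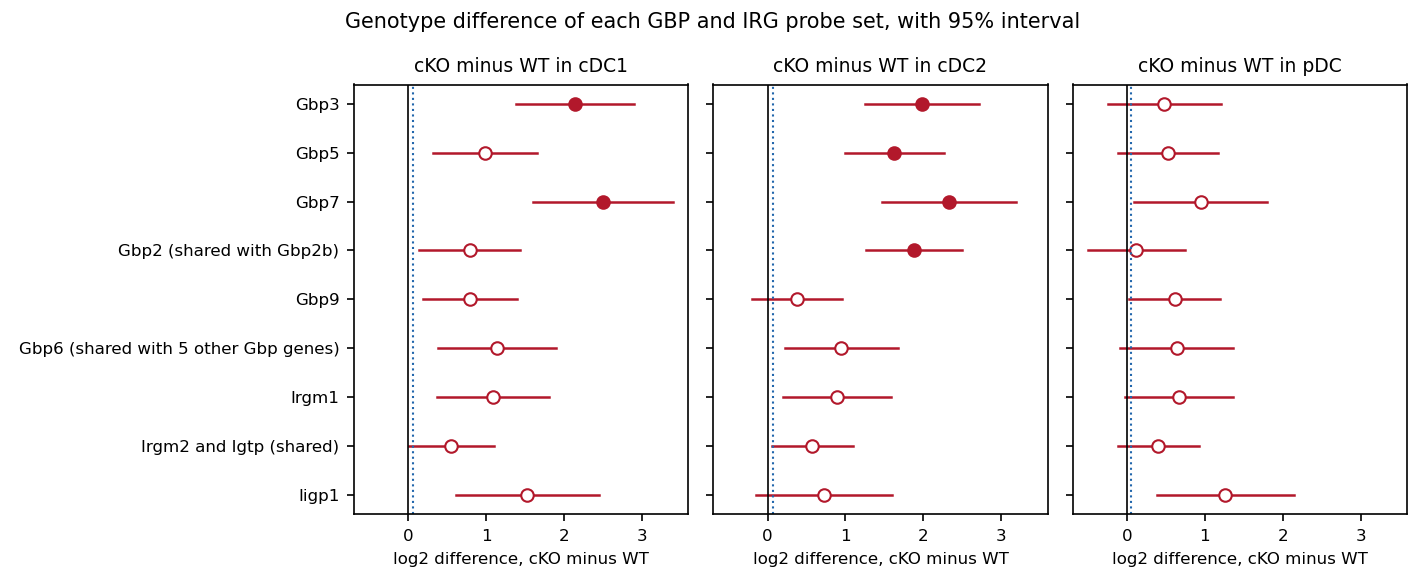
Difference of each member probe set, cKO minus WT, on the log2 scale, with its 95% confidence interval, in cDC1, cDC2 and pDC. Filled points were called and the dotted line is the median of all 13069 probe sets. In pDC no point is filled, and Iigp1 has the highest of the 9 differences there.

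In the main fit no member's genotype difference was shown to depend on the cell type: 0 of 9 were called for cDC1 minus cDC2, cDC1 minus pDC or cDC2 minus pDC, against 0.253%, 0.298% and 0.451% of all probe sets. With an unadjusted limma p below 0.05, 0, 2 and 4 of the 9 were higher in the cell type named first, against 1.52%, 1.68% and 2.49% of all, and 1, the Gbp2 probe set, was lower in cDC1 than in cDC2 (−1.08 ± 0.43). The Gbp2 and Gbp2b probe set came nearest, its cDC2 difference exceeding its pDC difference by 1.76 ± 0.43 (adjusted p = 0.0805, 0.00353 to 0.285 over the alternatives). Gbp3 exceeded its pDC difference by 1.66 ± 0.51 in cDC1 (adjusted p = 0.546) and by 1.5 ± 0.50 in cDC2 (adjusted p = 0.483). With the array set as a term in limma these were 1.73 and 1.5 and called (adjusted p = 0.0079 and 0.0189). Of 38 alternatives, 2 called the cDC1 excess and 1 the cDC2 excess. The cDC1 minus cDC2 contrast of Gbp3 had a 95% interval of −0.89 to 1.21 and that of Gbp7 of −1.07 to 1.41, so no difference between the conventional types was detectable and differences within these bounds are not excluded.

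Across the 6 groups, the order of the mean levels differed between members. Gbp3, Gbp5 and Gbp7 had cKO cDC1 and cKO cDC2 as the 2 highest groups, and the arrays of the lower of these did not overlap the arrays of the next group (cKO pDC for Gbp3 and Gbp7, WT cDC1 for Gbp5). All other neighbours in the order of group means overlapped, for these 3 genes and for the other 6 probe sets. How many of all probe sets have such a gap was not counted. Of all probe sets, 20% were called between cKO cDC1 and cKO pDC and 20.5% between cKO cDC2 and cKO pDC. Gbp9 followed the order cKO cDC2 (8.59 ± 0.47), cKO cDC1 (8.57 ± 0.21), WT cDC2 (8.21 ± 0.24), WT cDC1 (7.77 ± 0.16), cKO pDC (7.61 ± 0.55) and WT pDC (7.0 ± 0.31). Iigp1 had another order, from cKO pDC (6.98 ± 0.74) through cKO cDC1 (6.30 ± 0.65), WT pDC (5.72 ± 0.88), WT cDC1 (4.77 ± 0.50) and cKO cDC2 (4.62 ± 0.49) to WT cDC2 (3.89 ± 0.44). Irgm1 and the Gbp6 probe set were also highest in cKO pDC, at 6.49 ± 0.51 and 7.76 ± 0.54.

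Between cell types of the same genotype, the members called in WT cells were Gbp5, Gbp9 and Iigp1. In WT cDC1 against WT pDC, 1 of 9 called is near the 13.2% of all probe sets. In cKO cells, which had more arrays per group, 5 members were higher in conventional cells than in pDC. Iigp1 was lower in cDC2 than in pDC in both genotypes. In WT mice 0 of 9 were called for cDC1 minus cDC2 (5.72% of all called), but with the replicate block in these arrays alone Iigp1 (0.88, adjusted p = 0.00948) and Gbp5 (0.66, adjusted p = 0.022) were. Gbp5 was higher in WT cDC1 than in WT pDC by 1.27 ± 0.34 (adjusted p = 0.0134, 1 of 9 called, 13.2% of all). This call was kept by 32 of 38 alternatives and lost without the 3 high-Xist arrays. With the replicate block 2 were called there, as the Iigp1 difference of −0.95 then passed (adjusted p = 0.0233). With the block in those arrays alone 5 were called there: Gbp5, Iigp1 (adjusted p = 0.0334), the Gbp2 probe set (0.88, adjusted p = 0.018), Gbp9 (0.78, adjusted p = 0.0217) and the Gbp6 probe set (−0.79, adjusted p = 0.0367). The shares of all probe sets given for the WT comparisons are those of the fit without a block. The blocked counts therefore have no share to be set against. WT cDC2 exceeded WT pDC in Gbp9 by 1.22 ± 0.31 (adjusted p = 0.00936) and was below it in Iigp1, with a difference of −1.82 ± 0.47 (adjusted p = 0.0105, 12.4% of all called), and with the block in those arrays alone the Gbp2 probe set also passed (0.71, adjusted p = 0.0442). In cKO mice 5 members were higher in cDC1 than in pDC, namely Gbp5 (1.73 ± 0.28), Gbp7 (1.65 ± 0.38), Gbp3 (1.59 ± 0.32), the Gbp2 probe set (1.56 ± 0.28) and Gbp9 (0.96 ± 0.26), where 20% of all were called. The same 5 were higher in cKO cDC2 than in cKO pDC, the Gbp2 probe set by 2.47 ± 0.26 (adjusted p = 1.32e-07), and Iigp1 was lower, with a difference of −2.36 ± 0.37 (20.5% of all called). Between the conventional types of cKO mice, Iigp1 was higher in cDC1 than in cDC2 by 1.68 ± 0.39 (adjusted p = 0.00577), and the Gbp2 probe set was lower, at −0.91 ± 0.28 (adjusted p = 0.0415), a call that 23 of 37 alternatives kept (8.49% of all called). Iigp1 lay below the array median on every cDC2 array and the Gbp2 probe set on every pDC array, so the differences of both against those groups give a direction and their sizes are uncertain.

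Other family members were taken from a list of 25 further GBP, IRG and GVIN (giant interferon-inducible GTPase) names, read by 16 tested probe sets, of which 1 is the Gbp6 set above. In cDC1 2 of 16 rose, in cDC2 0 and in pDC 1, and none fell. Over all probe sets 0.819%, 1.12% and 0.0459% were called higher. Those in cDC1 were Gbp2b and Gbp8. In pDC it was 1 of 2 probe sets shared by Tgtp1 and Tgtp2, T cell-specific GTPases of the IRG family, with 1.91 ± 0.36 (adjusted p = 0.0485), while the other Tgtp set gave 1.77 ± 0.38 (adjusted p = 0.154), and 10 of 37 alternatives kept the call. The median difference of the 16 was 0.97 for cDC1, 0.43 for cDC2 and 0.53 for pDC.

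The pathway that leads from interferon receptors to these promoters had no called gene. Of 18 tested genes (the receptor chains, kinases, transcription factors and their inhibitors), 0 were called in any cell type. Over all probe sets 0.842%, 1.5% and 0.0459% were called in cDC1, cDC2 and pDC, so 0 among 18 genes is near that share. The median difference of the 18 was 0.12 (cDC1), 0.07 (cDC2) and 0.21 (pDC). Irf1, which encodes a factor that binds interferon-stimulated response elements, differed by 0.02, 0.05 and 0.37, and Ifngr1, the ligand-binding chain of the interferon-gamma receptor, by −0.27, −0.30 and −0.43. Usp18, an interferon-induced brake on type I receptor signalling, had the largest differences of that list in cDC1 and pDC, with 1.32, 0.53 and 1.33 in the 3 cell types (adjusted p = 0.714, 1 and 1). Stat2, a factor of type I signalling, had 0.61, 0.09 and 1.0. The Ifng probe set itself averaged 4.98 ± 0.27 in cKO cDC1 and 4.97 ± 0.20 in WT cDC1, about the array median. It averaged 5.03 ± 0.34 in cKO cDC2 and 4.87 ± 0.14 in WT cDC2. In cKO and WT pDC it averaged 4.83 ± 0.44 and 5.07 ± 0.44. Levels so near the array median say little about Ifng in any group.

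Genes known mainly as interferon-gamma targets had 0 of 16 called, near the 0.842%, 1.5% and 0.0459% of all probe sets in cDC1, cDC2 and pDC. Their median difference was 0.23 (cDC1), 0.20 (cDC2) and 0.13 (pDC). Cxcl10, a chemokine that draws T cells, had 1.42 ± 0.38 in cDC2 (adjusted p = 0.0718), and Wars, the tryptophan tRNA ligase, 0.94 ± 0.53 in pDC. Genes known mainly as type I interferon targets had medians of 1.10, 0.61 and 0.94. Of 21 tested, 5 rose in cDC1, 0 in cDC2 and 1 in pDC, against 0.819%, 1.12% and 0.0459% of all probe sets. Oasl2, of the oligoadenylate synthetase-like family, was the only one called in 2 cell types, with 1.03 ± 0.24 in cDC1 (adjusted p = 0.0336, kept by 26 of 38 alternatives) and 1.32 ± 0.22 in pDC (adjusted p = 0.0215, kept by 27 of 38). Besides Oasl2, the other 4 called in cDC1 were Ifi27l2a, Ddx58, Zbp1 and Xaf1, the last named after its values were seen. The Ifi27l2a call was kept by 38 of 38 alternatives, that of Zbp1 by 32 and that of Ddx58 by 27. Of 23 genes for partners of GBP proteins at vacuoles and in inflammasomes, 0 were called, again near the share of all probe sets. Their medians were 0.18, 0.14 and 0.09. The largest were Lgals3, which marks broken vacuoles, with 1.56 ± 0.47 in cDC2 (adjusted p = 0.139) and Rnf213, a ubiquitin ligase, with 1.13 ± 0.38 in pDC (adjusted p = 1). Among 7 tested interferon and inducing cytokine genes, Il12b, a subunit of interleukin 12 and interleukin 23, rose in cDC2 by 1.99 ± 0.29 (adjusted p = 0.000208).

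**Figure D4:**
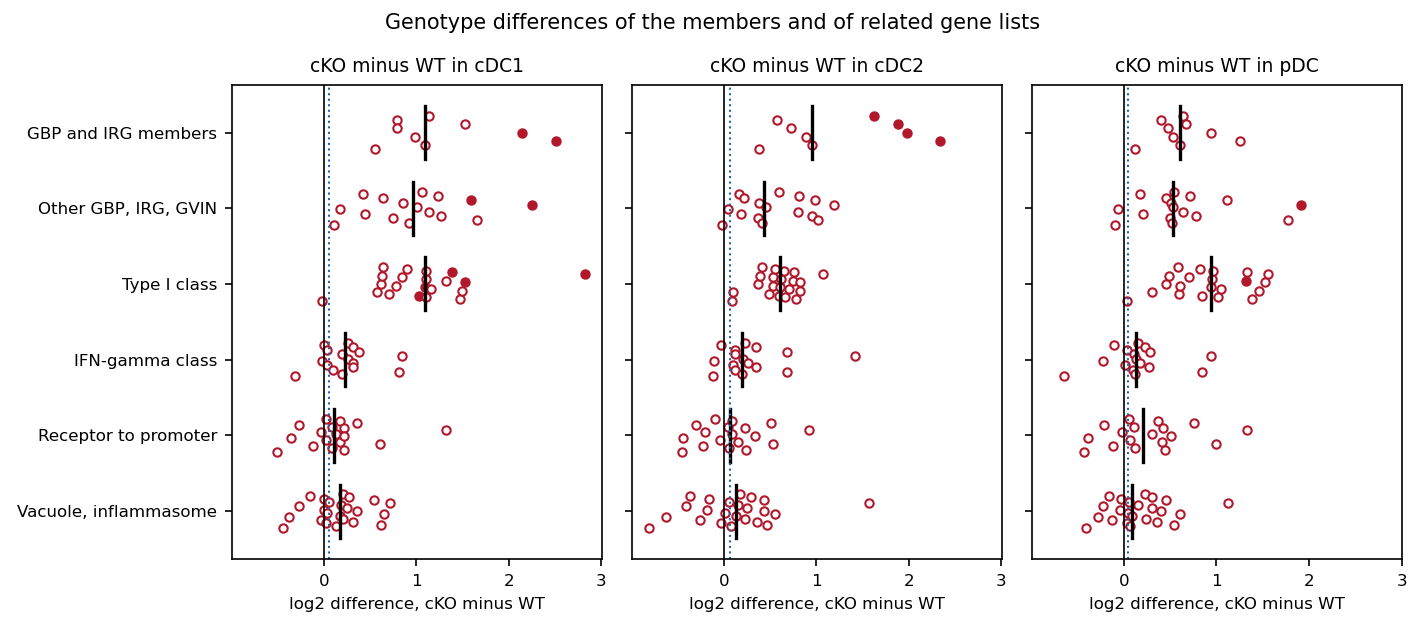
Difference, cKO minus WT, of each member and of each tested gene of 5 related lists, on the log2 scale, in the 3 cell types. Filled points were called, black bars are medians and the dotted line is the median of all probe sets. The members and the type I class have medians of 1.09 and 1.10 in cDC1, and the interferon-gamma class 0.23.

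As a description with no test, the genes called higher were 3.34% of 359 tested genes with the GAAA repeat in a promoter entry, against 0.696% of 9343 without it, in cDC1. The shares were 3.34% against 1.02% in cDC2, and 0.279% (1 gene) against 0.032% (3 genes) in pDC. Their median differences were 0.09, 0.10 and 0.08 with the motif, against 0.06, 0.07 and 0.05 without it. Gbp3, Gbp5, Gbp7 and Irgm1 are among the 359, and Gbp2, Irgm2 and Igtp, read only by shared probe sets, are not.

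Markers of other cells also moved with genotype. In cKO cDC1, 3 of 6 cDC2 markers rose (Cd209a by 3.20, Sirpa by 2.27 and Itgam by 2.14), and their summed intensity was 1022 to 1171, against 227 to 293.9 in WT cDC1. Clec4a4, also a cDC2 marker, was below the median on every cDC1 array. In cDC2, monocyte and neutrophil markers summed to 1285 to 2314 in cKO cells, against 488.7 to 1598 in WT cells, with 1 of 6 called higher (Ccr2, by 1.94) and 1 lower (Csf3r), and Ly6g was at 3.92 or less in every group mean. Markers of NK and T cells, a source of interferon-gamma, summed to 686 to 1298 in cKO cDC2, against 479.6 to 644.3 in WT cDC2, with 0 of 9 called higher and Tbx21 lower, and Klrb1c, Klra8 and Eomes below the median on every array of both groups. Macrophage markers summed to 567 to 1082 in cKO cDC2, against 504.2 to 1096 in WT cDC2, with Cd163 called higher by 0.76, and to 391.6 to 666 in cKO cDC1, against 390.2 to 626.5 in WT cDC1, with Adgre1 called higher by 1.27. Of the macrophage markers, C1qa, C1qc and Cd163 were below the median on every cKO cDC1 array, and Cd163 on every WT cDC1 array. In cDC2, C1qa and Cd163 were below it on every WT array, and no macrophage marker on every cKO array. The part of these cells in the GTPase differences was not tested.

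The 9 probe sets varied together to different degrees. Over 23 arrays, which share groups and array sets, the 36 pairs correlated with r of −0.33 to 0.87 (median 0.49), and after each group's mean was removed with −0.57 to 0.85 (median 0.28). The genes outside the family with profiles most like the mean of the 9 were Lamp1 (r = 0.899), Pilrb1 (0.889), Pilrb2 (0.875), Zbp1 (0.861) and Hbegf (0.85), over the same 23 arrays. For single members the nearest were Pilrb2 for Gbp7 (0.919), Pilrb1 for Gbp3 (0.897), Entpd1 for Gbp5 (0.898), Tmem106a for the Gbp2 probe set (0.938), Slfn2 for Gbp9 (0.848), Apba1 for the Gbp6 probe set (0.935), Dusp7 for Irgm1 (0.844), Rhebl1 for Irgm2 and Igtp (0.764) and Tmem219 for Iigp1 (0.867).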

How the data were processed

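RNA of sorted splenic dendritic cells was hybridised to 23 Mouse Gene 1.0 ST arrays, 1 population each. The deposited intensity values are 1 per probe set and array, made with Affymetrix Expression Console and RMA per the submitters' processing notes, with versions not given in the sources used here. They are linear, between 3.785 and 13980.744, and were converted to log2. Of 28853 probe sets, 21789 named 1 gene, 1621 several and 5443 none in the platform annotation, and 21698 of the 1-gene sets matched RefSeq by Entrez identifier. Probe sets above the array median on at least 3 arrays were kept, 1 per gene (highest mean). Probe sets naming several genes entered as features of their own, since 4 members are read only there, giving 12157 + 912 = 13069 features.

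Means of the 6 groups were estimated jointly from the 23 arrays with limma 3.58.1 (lmFit, eBayes, 17 residual degrees of freedom) in R 4.3.3, two-sided, with Benjamini-Hochberg adjustment over 13069 features and a call below 0.05, after it was tested on simulated data. The R package data.table (version 1.17.8), Python 3.11.15, pandas 2.3.3, numpy 2.4.6 and matplotlib 3.10.9 were also used. Errors are SE for differences and SD for levels. Precision is limited by how many arrays each group has. The members, lists and tests were chosen with earlier results of these data known, so patterns found earlier have no independent support here. Named genes are the members, up to 4 called genes of a list or, with none called, up to 2 with the largest difference, and the genes most correlated with the members. Family relatives, GBP cluster neighbours, Irf1, Ifngr1, Ifng, Bcl6, Xist and markers were added.

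Same-numbered arrays deviated together among WT cell types (r of 0.39 to 0.71), where differently numbered arrays had −0.47 to −0.06. In cDC1, 3 same-numbered pairs of cKO with WT had 0.46 to 0.55, but 9 differently numbered pairs had −0.55 to 0.6. The numbers are thus not shown to pair the cDC1 arrays across genotype. Not every same-numbered pair deviated together in cDC2 (−0.08 to 0.68), pDC (−0.25 to 0.65) or the cKO cell types (−0.29 to 0.62). Blocked values are given for cDC1 and the WT cell types beside a member whose call they change. In cDC2, the block fitted in limma to those arrays alone ended the calls of Gbp5, Gbp7 and the Gbp2 probe set. Their adjusted p there was 0.0733, 0.0733 and 0.0596. No 2 arrays shared over 8.44% of equal values. Alternatives covered normalization, filters, blocks, array sets, weights and leaving out arrays.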

Additional observations from a re-analysis of the deposited data

Results flagged for a closer look

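Among 27 groups of 4 or 5 arrays for the 9 member probe sets, 0 had an outlying array by Dixon's test. Among 42 groups for other named genes 3 did, where chance gives about 1 in 20. Stat2 in cKO cDC1 read 7.83 on replicate 2, against 8.53 for the nearest array. Wars read 6.46 in cKO cDC2 and 6.26 in cKO pDC, each on replicate 3, against 7.95 and 7.92 for the nearest arrays.

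In the main fit, genotype differences that differed between cell types were called for none of the members and for 2 other named genes. Gbp2b had a cDC1 difference above its cDC2 difference by 2.06 (limma adjusted p = 0.00619) and above its pDC difference by 2.08 (adjusted p = 0.0044). Il12b had a cDC1 difference minus cDC2 difference of −2.01 (adjusted p = 0.0369, passing in 23 of 38 alternatives, highest 0.184) and a cDC2 difference minus pDC difference of 2.29 (adjusted p = 0.00679).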

How the results depend on the processing

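Of 108 member results over 12 comparisons, 22 were called, and 0 calls reversed. The alternatives were 35 other settings and 3 more chosen after seeing the data (the block or the array set fitted within the groups compared, and 1-gene probe sets only). Of the 22, 14 were called under every alternative that held their probe set. Gbp3 and Gbp7 in cDC1 and Gbp3 in cDC2 passed in all 38. The cause of changed calls was not tested, except that 1-gene probe sets leave out the Gbp2 set by construction. A difference changed sign in a genotype comparison for the Gbp2 set in pDC only (−0.07 with the replicate block, −0.11 with the block within groups), never called.

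Numbers of member probe sets called moved by over 1.5 times, or to or from 0, as follows. cKO minus WT gave 6 in cDC1 with array weights and 1 in cDC2 with the replicate block within groups, where Gbp5, Gbp7 and the Gbp2 set lost their calls. The numbers do not pair the cDC2 arrays. Short of that, Gbp7 in cDC2 lost its call with the array set within groups, and in cDC1 Iigp1 gained one with median centring, the replicate block, the array set and array weights, and Gbp9 with the block within groups. The cDC2 minus pDC difference of effects gave 1 under quantile normalization, median centring, the replicate block, the random block, array weights and the array set within groups, and 2 with the array set as a term. For cDC1 minus pDC it gave 1 with either array set term. WT cDC1 minus pDC gave 3 (quantile), 2 (centring), 2 (replicate block), 4 (random block), 3 (array set), 0 (only the groups compared), 0 (without the WT replicate 1 arrays) and 5 (block within groups). WT cDC2 minus pDC gave 0 with array weights, and WT cDC1 minus cDC2 gave 2 with the block and 1 with the array set within groups. cKO cDC1 minus cDC2 gave 1 without a filter, with either replicate block, with only the groups compared, without the WT replicate 1 arrays and with 1-gene probe sets only.

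Leaving out 1 array gave 2 to 3, 3 to 4 and 0 to 0 called members for cKO minus WT in cDC1, cDC2 and pDC, 0 to 0, 0 to 0 and 0 to 1 for the differences of effects, 0 to 0, 0 to 2 and 1 to 2 in WT and 1 to 2, 5 to 5 and 6 to 6 in cKO. Over all probe sets, 110, 196 and 6 were called for cKO minus WT, against 302, 255 and 1 with array weights, 162, 357 and 12 with the array set, 141, 100 and 0 with the block within groups, 86, 131 and 0 with only the groups compared, and 69 to 116, 108 to 213 and 2 to 11 without 1 array.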
